A study of Mus musculus with 24 samples.

Results

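The genes described here are 35 genes by which T cells are recognised and through which they signal, taken by symbol from the 55487 genes listed for each library. All 35 were found. They were followed through the RNA of mouse colon and colorectal tumours in 8 groups of 3 libraries each, all from C57BL/6 mice and given by the submitters as biological replicates. In the KO groups the gene Axin1 was deleted in the epithelial cells of the intestine, and the WT groups were wild type. Each genotype was sampled as colon of untreated mice, as colon taken at day 7 or day 13 of DSS-induced colitis (DSS, dextran sulfate sodium, is a salt given to mice to injure the colon lining), and as tumours raised with AOM and DSS (AOM, azoxymethane, is a carcinogen). The colon and tumours were washed and taken whole, so each library mixes the RNA of all cells in the piece. The sources used here do not give the driver of the deletion, the ages of the mice or the dose and schedule of DSS.

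T cells read antigen through the T cell receptor, a pair of variable chains held in the membrane by the CD3 chains. The coreceptors CD4 and CD8 bring the kinase Lck to the receptor, Lck phosphorylates the CD3 chains, and the kinase Zap70 then docks there and passes the signal to the adaptor Lat. Costimulatory receptors such as Cd28 and Icos strengthen that signal, and inhibitory receptors such as Ctla4 and Pdcd1 restrain it. In the gut, T cells lie within the epithelium, in the lamina propria beneath it and in lymphoid follicles, and regulatory T cells that carry Foxp3 hold back inflammation there.

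Libraries held 15653300 to 28066996 expected counts (median 23642270). Axin1 itself lay between 13.5 and 19.7 CPM (counts scaled to the library total) in the 12 KO libraries, against 47.4 to 58.8 CPM in the 12 WT libraries. T cell genes were thinly covered. The median count of a member in a library was 23, and 9 of the values were 0, all of them in Cd8b1, Themis, Cd5, Tbx21 and Eomes. Levels below are CPM scaled by edgeR's TMM factors over the 24 libraries, and levels of different genes are compared only as deposited TPM, which is per length. Differences are log2 with their standard error, n is 3 libraries a group throughout, and each adjusted p is from edgeR's quasi-likelihood test with Benjamini-Hochberg adjustment over all genes tested, with a threshold of 0.05. Themis, Pdcd1 and Eomes were too low to be tested among colon libraries, and Themis and Tbx21 among tumours. In bulk tissue, fewer T cells and less of an RNA in each T cell cannot be told apart.

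Per length, Cd52 was the highest member in every group and Thy1 the second. In tumours Cd52, a small surface glycoprotein of lymphocytes and other leukocytes, averaged 78.5 ± 10.4 TPM in KO and 98.0 ± 5.37 TPM in WT (SD). Thy1, a surface protein of mouse T cells that fibroblasts and neurons carry too, averaged 32.1 ± 4.96 TPM in KO tumours and 39.7 ± 11.2 TPM in WT tumours. The chains of the T cell receptor, the defining markers of T cells, were lower. Trac averaged 9.49 ± 3.17 TPM in KO tumours and 14.8 ± 9.34 TPM in WT tumours, and each of the 7 chains on the list was counted in every library. WT tumours had the highest mean CPM of the 8 groups for 25 of the 35 members, WT colon at day 13 for 7, untreated KO colon for 2 and WT colon at day 7 for 1. KO colon at day 7 had the lowest mean CPM for 27 members.

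The range of each member over the libraries follows in CPM, which is not per length, so these values do not rank the genes. Lck, the kinase that starts receptor signalling, lay between 1.45 and 10.5 CPM, and Il2rb, the beta chain shared by the receptors for interleukins 2 and 15, between 0.751 and 9.48 CPM. The adaptor Lat lay between 0.39 and 4.16 CPM, the adhesion receptor Cd2 between 0.532 and 5.07 CPM, and the receptor chains Cd3d, Cd3g, Cd247 and Trbc2 between 0.0791 and 5.31 CPM. Cd5 and Cd6, scavenger receptor relatives that tune the receptor signal, reached 2.77 and 3.63 CPM. Cd8b1, the beta chain of CD8, had at most 0.773 CPM in any library, Tbx21, the factor of type 1 helper cells, at most 0.814 CPM, the costimulatory receptor Cd27 at most 0.967 CPM, and Themis, a protein of receptor signalling in thymocytes, at most 0.976 CPM. Skap1 and Ubash3a stayed at or below 1.35 CPM. Eomes, a factor of cytotoxic T cells and NK cells, reached 2.93 CPM in WT tumour replicate 1 and was below 1 CPM in all other libraries.

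**Figure D1:**
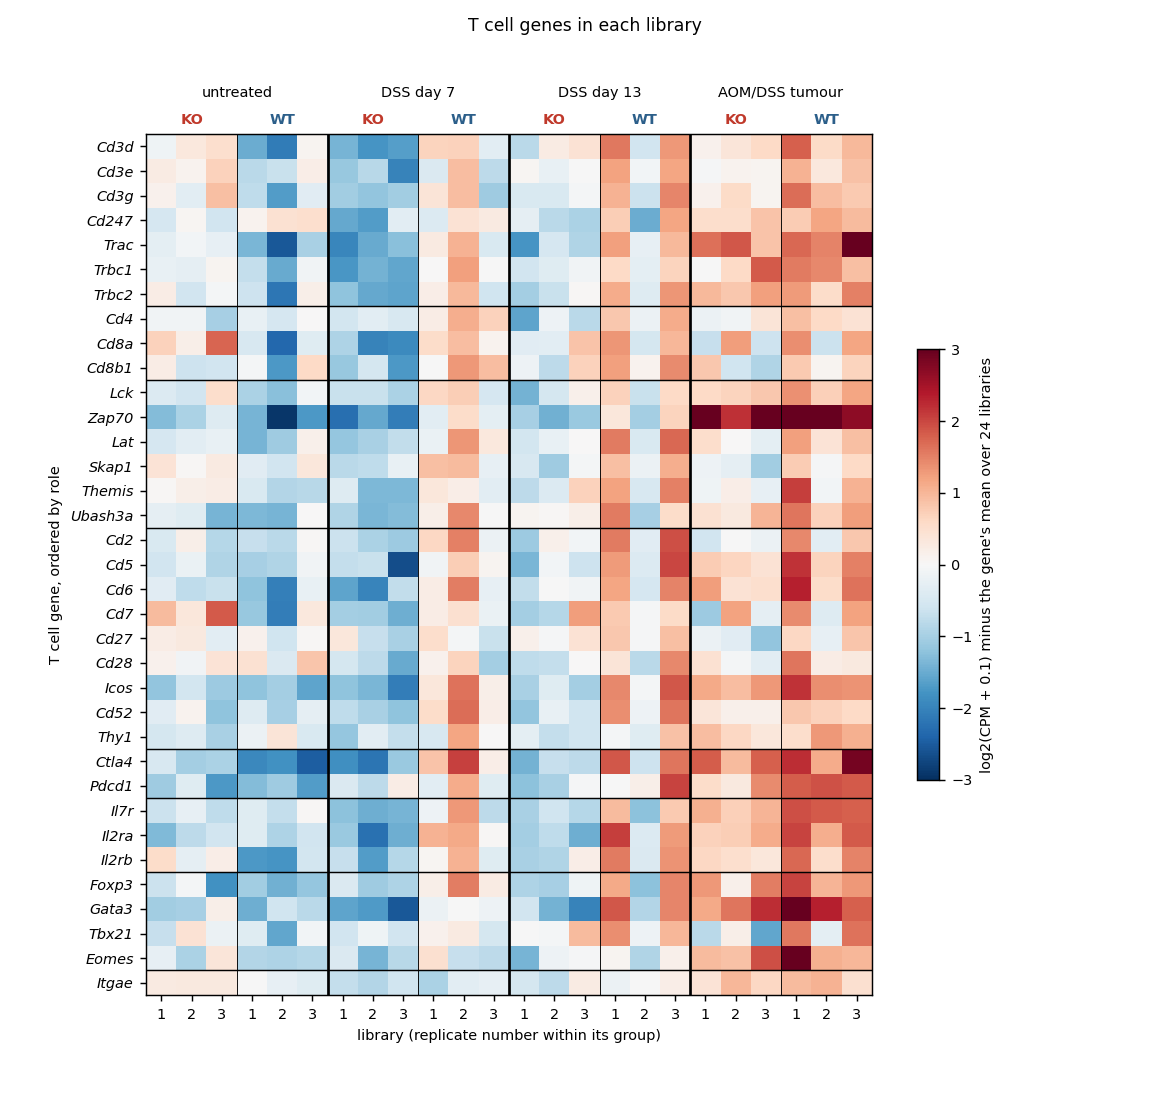
Heat map of the 35 members (down the page, by role) in the 24 libraries (across, KO to the left of WT in each condition); colour is log2(CPM + 0.1) minus the gene's mean over all libraries. The KO libraries of day 7 form the most even block of low values, and the tumours, with WT replicates 1 and 3 of day 13 and WT replicate 2 of day 7, hold most of the high ones.

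Libraries within a group were uneven. Among WT libraries of day 7, replicate 2 was the highest for 31 of the 35 members, and among WT libraries of day 13, replicate 2 was the lowest for 33. The same libraries stood apart in other leukocyte genes. The summed CPM of Coro1a, Laptm5, Cd53 and Rac2, genes of all leukocytes, was 31.3, 32.6 and 25.5 in KO at day 7, against 97.9, 218 and 63.6 in WT at day 7. At day 13 it was 19.3, 42.5 and 36.6 in KO, against 161, 45.4 and 228 in WT. A list of 4 genes of squamous epithelium, a lining the colon does not have, summed to 886 CPM in KO replicate 1 and 3830 CPM in WT replicate 3 of day 13, which are called the squamous libraries of day 13 below. In tumours the same list summed to 55.5, 490 and 105 CPM in KO, against 18.9, 35.9 and 54.8 CPM in WT. By Xist and Y-linked genes, the day 13 KO libraries were all female and the day 13 WT libraries all male, so sex and genotype cannot be told apart there. At day 7 all libraries were female except KO replicate 1. The untreated libraries were male except WT replicate 3, and in tumours replicate 3 of each genotype was female. In KO, sex thus cannot be told apart from DSS between day 13 and untreated colon. In WT it cannot be told apart from the day between day 7 and day 13. Day 7 and untreated colon also differed in their mix of sexes in both genotypes.

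The strongest movement of these genes was in tumours, where Zap70, Ctla4, Trac, Icos, Gata3 and Pdcd1 stood far above untreated colon in both genotypes. Of the 35 members, 28 rose in WT tumours and 11 in KO tumours, and none fell in either. Among all genes tested, 27.6% rose in WT tumours and 26.4% in KO tumours, so the members' share was well above the background in WT and close to it in KO. The median log2 difference of the members was 2.19 in WT, against 0.09 for all genes, and 0.78 in KO, against 0.04 for all genes.

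Zap70 moved most. It had 16.7, 7.35 and 16 CPM in KO tumours, against 0.566, 0.748 and 1.16 CPM in untreated KO colon. In WT it had 14.9, 18 and 10.5 CPM in tumours, against 0.52, 0.119 and 0.4 CPM in untreated colon. All 6 tumours lay above all 18 colon libraries, the highest of which had 2.51 CPM. The log2 difference was 4.01 ± 0.50 in KO (adjusted p = 6.97e-06) and 5.38 ± 0.55 in WT (adjusted p = 8.8e-07). Per length Zap70 reached 13.5 ± 5.41 TPM in KO tumours and 13.4 ± 3.64 TPM in WT tumours, a level close to that of Trac.

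Among the receptor chains, Trac, the constant part of the alpha chain, had 4.66, 5.33 and 2.63 CPM in KO tumours, against 1.13, 1.31 and 1.16 CPM in untreated KO colon. Trac had 4.84, 4.09 and 12.5 CPM in WT tumours, against 0.477, 0.158 and 0.667 CPM in untreated WT colon. Tumours and untreated colon did not overlap in either genotype, and the log2 difference was 1.80 ± 0.54 in KO (adjusted p = 0.00914) and 4.03 ± 0.60 in WT (adjusted p = 2.86e-05). Trbc1, a constant part of the beta chain, rose as well in both, and its reads may be shared with its near-identical neighbour Trbc2.

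None of the CD3 chains passed in KO tumours. Cd3e, a chain that every T cell receptor needs, had 1.05, 1.16 and 1.14 CPM in KO tumours, against 1.29, 1.16 and 1.8 CPM in untreated KO colon. In WT it had 2.3, 1.36 and 2.05 CPM in tumours, against 0.563, 0.632 and 1.24 CPM in untreated colon. The KO tumours sat at or below the KO colon, and the WT tumours above the WT colon. In WT Cd3e rose by 1.23 ± 0.46 (adjusted p = 0.0355), and in KO the log2 difference was -0.34 ± 0.46 (adjusted p = 0.553). The WT call was lost, with an adjusted p of up to 0.131, when either of WT untreated replicates 1 and 2 or WT tumour replicates 1 and 3 was left out. Of the 7 receptor chains, 2 passed in KO and 6 in WT, where Cd247 (CD3 zeta) did not.

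Both inhibitory receptors rose in both genotypes. Ctla4, which competes with Cd28 for its ligands, had 3.58, 1.93 and 3.5 CPM in KO tumours, against 0.647, 0.412 and 0.441 CPM in untreated KO colon. Ctla4 had 4.76, 2.17 and 7.51 CPM in WT tumours, against 0.173, 0.198 and 0.0889 CPM in untreated WT colon. No tumour overlapped the untreated colon of its genotype. The log2 difference was 2.58 ± 0.63 in KO (adjusted p = 0.00233) and 4.91 ± 0.72 in WT (adjusted p = 2.64e-05). Pdcd1, the receptor PD-1, rose by 2.31 ± 0.72 in KO (adjusted p = 0.0124) and by 4.14 ± 0.77 in WT (adjusted p = 0.000259). Its KO call was lost when untreated replicate 3 was left out (adjusted p = 0.0563) or tumour replicate 3 (adjusted p = 0.0653).

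Of the costimulatory and adhesion molecules, 2 of 9 passed in KO, Icos and Thy1 (1.26 ± 0.39, adjusted p = 0.0109), and 5 of 9 in WT. Icos, an inducible relative of Cd28, had 2.64, 2.24 and 2.97 CPM in KO tumours, against 0.445, 0.748 and 0.481 CPM in untreated KO colon. Icos had 5.5, 3.14 and 3.04 CPM in WT tumours, against 0.433, 0.514 and 0.311 CPM in untreated WT colon. Tumours and untreated colon did not overlap, and Icos rose by 2.22 ± 0.49 in KO (adjusted p = 0.00105) and 3.19 ± 0.51 in WT (adjusted p = 5.6e-05). Cd28 itself differed by -0.10 ± 0.58 in KO (adjusted p = 0.905) and 0.52 ± 0.57 in WT (adjusted p = 0.473).

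Of the 3 cytokine receptors and the 4 transcription factors, 2 and 2 rose in KO, and all of them rose in WT. Il2ra, the high-affinity chain of the interleukin-2 receptor found on activated and regulatory T cells, rose by 1.86 ± 0.50 in KO (adjusted p = 0.00509) and 2.44 ± 0.50 in WT (adjusted p = 0.000632). Il2rb rose by 2.67 ± 0.55 in WT (adjusted p = 0.000603) and differed by 0.31 ± 0.51 in KO (adjusted p = 0.644). Gata3, the factor of type 2 helper cells, had 1.82, 2.55 and 3.92 CPM in KO tumours, against 0.324, 0.337 and 0.881 CPM in untreated KO colon. Gata3 had 8.7, 4.3 and 2.9 CPM in WT tumours, against 0.217, 0.474 and 0.4 CPM in untreated WT colon. It rose by 2.42 ± 0.64 in KO (adjusted p = 0.00434) and 3.84 ± 0.68 in WT (adjusted p = 0.000156). Foxp3, which defines regulatory T cells, had 2.16, 0.928 and 2.55 CPM in KO tumours, against 0.485, 0.786 and 0.16 CPM in untreated KO colon. In WT it had 3.63, 1.75 and 2.16 CPM in tumours, against 0.347, 0.237 and 0.311 CPM in untreated colon. Every tumour was above every untreated colon of its genotype. Foxp3 rose by 1.96 ± 0.64 in KO (adjusted p = 0.0163) and 3.05 ± 0.68 in WT (adjusted p = 0.00118). In KO its call was lost without untreated replicate 3 (adjusted p = 0.0715) or tumour replicate 3 (adjusted p = 0.0609).

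The coreceptors had the smallest median of the roles, 0.39 in KO and 0.91 in WT. Cd4, which some dendritic cells and innate lymphoid cells also carry, differed by 0.42 ± 0.37 in KO tumours (adjusted p = 0.36) and rose by 0.91 ± 0.37 in WT tumours (adjusted p = 0.0479). Cd8a had 0.473, 2.09 and 0.495 CPM in KO tumours, against 1.38, 0.935 and 3.0 CPM in untreated KO colon. Cd8a had 2.34, 0.489 and 1.98 CPM in WT tumours, against 0.563, 0.0791 and 0.622 CPM in untreated WT colon. Tumours and untreated colon overlapped in both genotypes. The log2 difference of Cd8a was -0.80 ± 0.73 in KO (adjusted p = 0.376) and 1.93 ± 0.78 in WT (adjusted p = 0.0481). KO tumour replicate 2, the highest of its group in Cd8a, was also the highest in Cd7 (2.4 CPM, against 0.406 and 0.8 CPM in the other KO tumours). It was the highest too in the summed squamous epithelium genes and in 5 summed genes of lymphoid tissue (72.3 CPM, against 22.0 and 22.8 CPM). Most of the latter sum was Ccl21a (56.4 CPM, against 15.5 and 11.9 CPM). Ltb of the same list was lowest in replicate 2 (3.02 CPM, against 3.38 and 6.09 CPM). Without KO tumour replicate 2 the difference of Cd8a in KO was -1.86 (adjusted p = 0.0668), and the count of members that rose in KO tumours was again 11. The WT call of Cd4 was lost with any of the 6 WT libraries left out (adjusted p of up to 0.146), and that of Cd8a with any but tumour replicate 2 left out (adjusted p of up to 0.168).

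**Figure D2:**
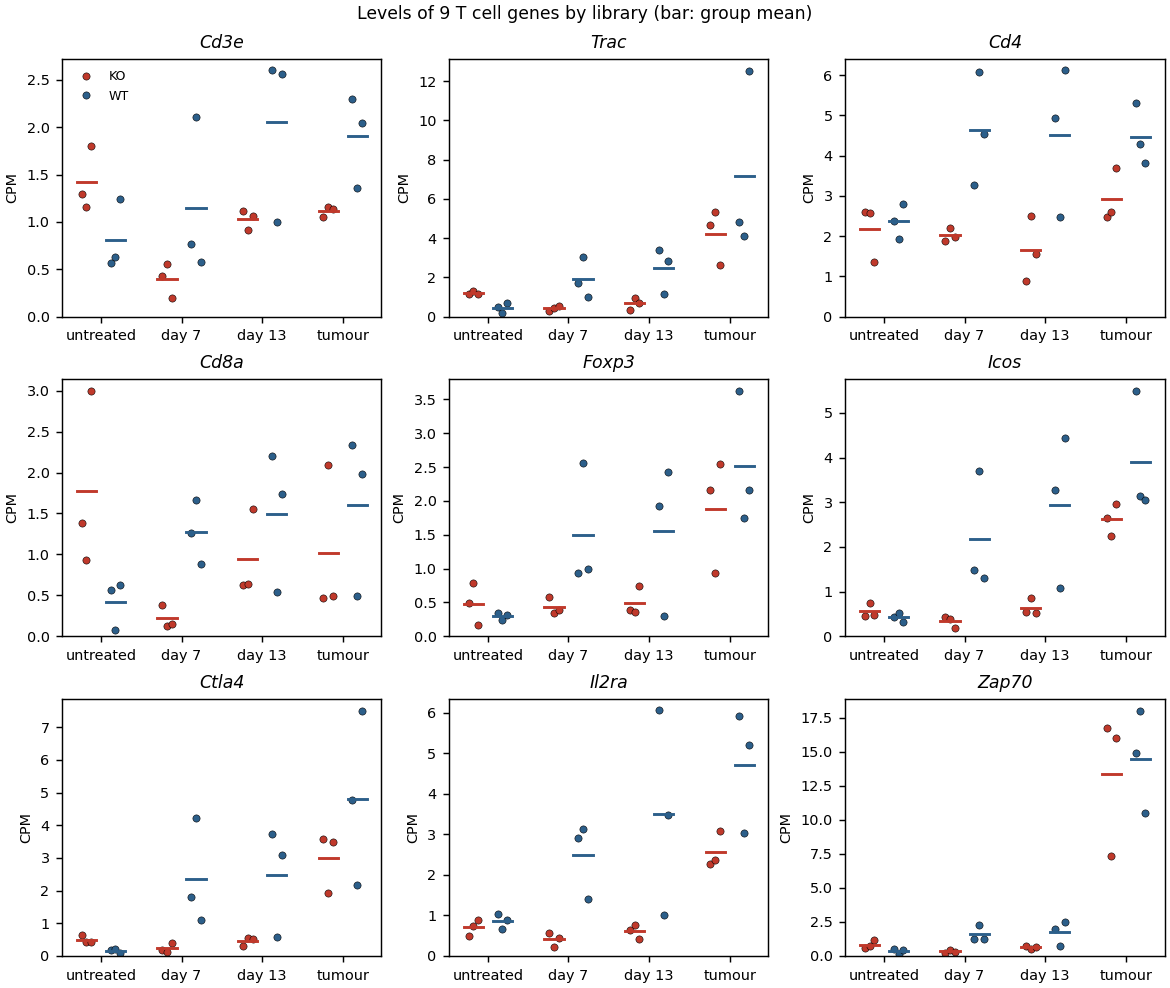
CPM of 9 members in each library (points) with the group mean (bar), for KO to the left of WT in each of the 4 conditions. Zap70 in tumours lies above every colon library in both genotypes, while Cd3e in KO tumours, at 1.05 to 1.16 CPM, lies no higher than in untreated KO colon.

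A rise called in WT alone does not show that the genotypes differ. The difference of the KO and WT tumour responses was tested directly, and no member passed. That difference was negative for 33 of the 35 members, with a median of -1.24, against -0.02 for all genes. The lowest adjusted p was 0.406, DESeq2 called 0 members, and edgeR called 0% of all genes. At an unadjusted p under 0.05 there were 11 members, against 1652 of the 19056 genes tested. The members of smallest p were Il2rb (-2.36 ± 0.74, adjusted p = 0.406), Cd3g (-2.24 ± 0.77, adjusted p = 0.436) and Trac (-2.23 ± 0.77, adjusted p = 0.436). The difference was -1.57 ± 0.65 for Cd3e, -0.49 ± 0.52 for Cd4, -2.73 ± 1.07 for Cd8a and -1.09 ± 0.91 for Foxp3, with adjusted p between 0.465 and 0.807. The KO and WT responses each use the untreated colon of their own genotype.

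**Figure D3:**
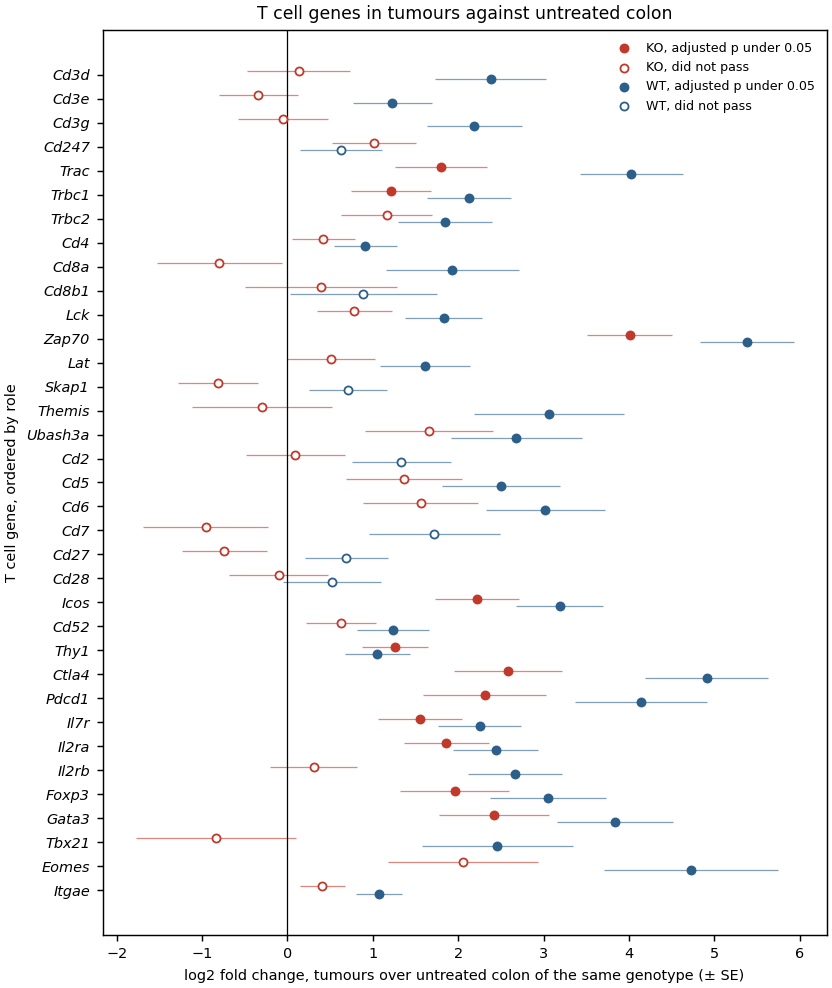
Log2 difference of tumours from untreated colon of the same genotype for each of the 35 members, with KO and WT points side by side and bars of 1 SE; filled points passed an adjusted p of 0.05. Zap70, at 4.01 in KO and 5.38 in WT, stands farthest right, and 33 of the 35 members lie higher in WT than in KO.

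Tumours and untreated colon also differed in what else they held. Smooth muscle genes (Myh11, Acta2, Des, Actg2 and Cnn1) summed to 93.0 to 211 CPM in the 6 tumours, against 1630 to 9740 CPM in the 18 colon libraries. All 8 macrophage and monocyte genes rose in tumours of both genotypes, by a median of 1.58 in KO and 1.61 in WT. Of the 10 B cell genes, 4 fell in KO tumours and 5 in WT tumours. The part these shifts play in the T cell values was not tested.

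Within a library the ratio of members needs no normalisation between libraries. The log2 ratio of Zap70 to the summed Cd3d, Cd3e and Cd3g was 2.47, 0.97 and 2.23 in KO tumours, against 0.79, 1.97 and 0.94 in WT tumours. In the 18 colon libraries it lay between -2.87 and -0.32. KO tumours did not differ from WT tumours in this ratio by more than their spread (difference 0.65, exact two-sided permutation p = 0.2, adjusted p = 0.48 over 60 such tests). Foxp3 over the same sum was -0.46, -2.0 and -0.4 in KO tumours, against -1.24, -1.39 and -1.33 in WT tumours. The 3 WT values are close together and lie inside the KO range (exact permutation p = 0.4, adjusted p = 0.615). Of the 60 comparisons of KO with WT ratios, none had an adjusted p under 0.4, and with 3 against 3 libraries the exact test cannot go below 0.1.

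Genes that work with these members were followed from a wider list of 28 partners of T cell receptor signalling. In tumours 13 of the 25 tested rose and 1 fell in KO, and 17 rose and 1 fell in WT. Tnfrsf9, the costimulatory receptor 4-1BB, rose by 4.33 ± 0.77 in KO (adjusted p = 0.000167) and 6.07 ± 0.86 in WT (adjusted p = 1.83e-05). Lcp2, the adaptor SLP-76 that Zap70 phosphorylates, rose by 1.92 ± 0.40 in KO (adjusted p = 0.000693) and 3.06 ± 0.42 in WT (adjusted p = 1.44e-05). In a list of genes of naive and recirculating T cells, Tcf7 and Lef1 rose by 3.88 ± 0.35 and 5.47 ± 0.57 in KO, and by 3.59 ± 0.35 and 5.02 ± 0.56 in WT. Both encode transcription factors that work with beta-catenin in Wnt signalling and are known from intestinal epithelium as well as from T cells.

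The upstream sequences of 3 members are shown because the tumour results turn on these genes, and they were picked with their values known. They are the kinase with the largest rise, an inhibitory receptor that also rose in both genotypes and a CD3 chain that did not pass in KO. Each is the 250 bases before the RefSeq start, read 5′ to 3′ on the gene's strand, from RefSeq on GRCm38.p6. Capitals mark the ETS motif CAGGAAG, here on the opposite strand as CTTCCTG.
Zap70, chr1:36761548-36761797, plus strand: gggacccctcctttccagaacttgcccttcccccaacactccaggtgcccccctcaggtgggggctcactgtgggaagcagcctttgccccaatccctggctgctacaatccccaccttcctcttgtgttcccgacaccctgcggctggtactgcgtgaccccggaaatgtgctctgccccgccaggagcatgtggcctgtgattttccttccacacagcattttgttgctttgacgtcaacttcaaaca
Ctla4, chr1:60908775-60909024, plus strand: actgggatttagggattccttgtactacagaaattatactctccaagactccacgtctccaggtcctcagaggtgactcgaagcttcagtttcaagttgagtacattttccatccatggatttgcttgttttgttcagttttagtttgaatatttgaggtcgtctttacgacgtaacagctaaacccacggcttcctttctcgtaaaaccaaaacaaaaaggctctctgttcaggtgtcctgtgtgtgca
Cd3e, chr9:45009612-45009861, minus strand: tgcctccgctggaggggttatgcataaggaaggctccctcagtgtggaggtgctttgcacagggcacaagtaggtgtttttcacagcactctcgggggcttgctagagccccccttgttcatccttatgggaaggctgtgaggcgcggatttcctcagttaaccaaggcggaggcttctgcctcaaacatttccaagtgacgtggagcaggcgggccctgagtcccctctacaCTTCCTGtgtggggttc

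In GENCODE M21 the Zap70 window lies outside exons and just before the gene. The Ctla4 window lies within the gene's annotated span, in no exon, since GENCODE places a start farther upstream, and 16 bases of the Cd3e window overlap the gene's first exon. A window of this kind was found for 20 of the 35 members, and for each the most upstream start was used. The shares of all windows below count every window listed, where a gene can have more than 1. The sets compared are thus not alike. The ETS motif CAGGAAG was in 6 of those 20 windows (30.0%), against 10.8% of all 32851 windows. The RUNX motif TGTGGT was in 1 of 20 (5.0%), against 14% of all, and the TCF/LEF motif CTTTGAT in 1 of 20 (5.0%), against 3.21% of all. Both strands were searched. The 3 motifs and their spellings were chosen after these sequences had been read, and the matches describe letters, not sites.

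At day 7 of DSS colitis none of the T cell genes passed the test between KO and WT colon. Ctla4, Icos and Trbc1, the members of smallest p, tied at an adjusted p of 0.0647 with Il2ra, Zap70, Cd52 and Trac. All 32 tested members had a negative log2 difference, from -3.26 to -0.22, with a median of -1.76, against 0.05 for all genes. At an unadjusted p under 0.05 there were 26 of the 32 members, against 4887 of the 18102 genes tested. The lowest adjusted p was 0.0647. DESeq2 called 16 members, and its share of all genes is not given here or below. edgeR called 0.00552% of all genes in this comparison. In 25 members every KO library was below every WT library, which was so for 13.7% of all genes.

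Ctla4 had 0.192, 0.128 and 0.387 CPM in KO at day 7, against 1.79, 4.22 and 1.1 CPM in WT at day 7. Icos had 0.433, 0.383 and 0.193 CPM in KO, against 1.48, 3.71 and 1.31 CPM in WT. Trbc1 had 0.289, 0.383 and 0.338 CPM in KO, against 1.21, 2.94 and 1.2 CPM in WT. In all 3 genes the genotypes were apart and WT replicate 2 was the highest. Their log2 differences were -3.26 ± 0.68 for Ctla4, -2.61 ± 0.55 for Icos and -2.33 ± 0.47 for Trbc1, each with an adjusted p of 0.0647. Cd3e differed by -1.46 ± 0.55 (adjusted p = 0.111), Cd4 by -1.15 ± 0.40 (adjusted p = 0.0956), Cd8a by -2.47 ± 0.75 (adjusted p = 0.0736) and Foxp3 by -1.72 ± 0.68 (adjusted p = 0.125). Without WT replicate 3 the count of members called was 15, and without WT replicate 1 it was 6.

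Genes of other cell types, leukocytes and others, also had negative differences between KO and WT at day 7. B cell genes had a median log2 difference of -2.35, and all 10 were negative. The 4 genes of all leukocytes had a median of -2.06, and the 8 macrophage and monocyte genes one of -1.17, with 0 called in each list. Neutrophil genes summed to 2.65, 1.02 and 2.56 CPM in KO, against 39.0, 145 and 14.4 CPM in WT. The 5 lymphoid tissue genes had a median of -2.33, with 4 of 5 at an unadjusted p under 0.05. Fibroblast genes summed to 446 to 719 CPM in KO, against 733 to 2320 CPM in WT, and genes of enteric neurons and glia to 15.6 to 21.1 CPM in KO, against 30.6 to 117 CPM in WT. Epithelial genes had a median of 0.10. The part of these cells in the T cell values was not tested.

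At day 13 the alpha chain of the interleukin-2 receptor, Icos and Gata3 fell in KO relative to WT. All 32 tested members were negative, from -2.78 to -0.27, with a median of -1.31, against -0.02 for all genes. With 3 of 32 members lower, against 1.86% of all genes tested, the share was above the background. At an unadjusted p under 0.05 there were 18 members, against 3291 of the 18102 genes tested.

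Il2ra had 0.63, 0.772 and 0.43 CPM in KO at day 13, against 6.06, 1.0 and 3.48 CPM in WT. Icos had 0.533, 0.863 and 0.509 CPM in KO, against 3.28, 1.09 and 4.45 CPM in WT. Gata3 had 0.485, 0.227 and 0.117 CPM in KO, against 3.05, 0.376 and 2.32 CPM in WT. For Il2ra and Icos the genotypes did not overlap, while for Gata3 WT replicate 2 lay below KO replicate 1. The log2 difference was -2.50 ± 0.55 for Il2ra (adjusted p = 0.028), -2.19 ± 0.52 for Icos (adjusted p = 0.0394) and -2.78 ± 0.69 for Gata3 (adjusted p = 0.0475).

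Ctla4 differed by -2.42 ± 0.63 (adjusted p = 0.0567), Cd4 by -1.44 ± 0.41 (adjusted p = 0.0767), Foxp3 by -1.60 ± 0.66 (adjusted p = 0.214), Cd3e by -0.99 ± 0.50 (adjusted p = 0.314) and Cd8a by -0.64 ± 0.65 (adjusted p = 0.656). In 6 members every KO library was below every WT library, against 12.1% of all genes. The 3 calls did not hold with Y-linked expression as a covariate, with only the KO and WT libraries of day 13 fitted, or without the squamous libraries of day 13, where 0 members passed each time. Leaving out WT replicate 2 gave 16 members, and leaving out any other day 13 library gave 0.

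The wider signalling list had 2 of 24 genes lower at day 13. They were Lcp2, by -2.38 ± 0.45 (adjusted p = 0.0171), and Havcr2, the receptor TIM-3 that macrophages also carry, by -2.07 ± 0.37 (adjusted p = 0.0152). In the same comparison 6 of 8 macrophage and monocyte genes and 4 of 4 neutrophil genes fell. B cell genes had a median of -1.92 with 0 of 10 called. The part of these cells in the T cell values was not tested.

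**Figure D4:**
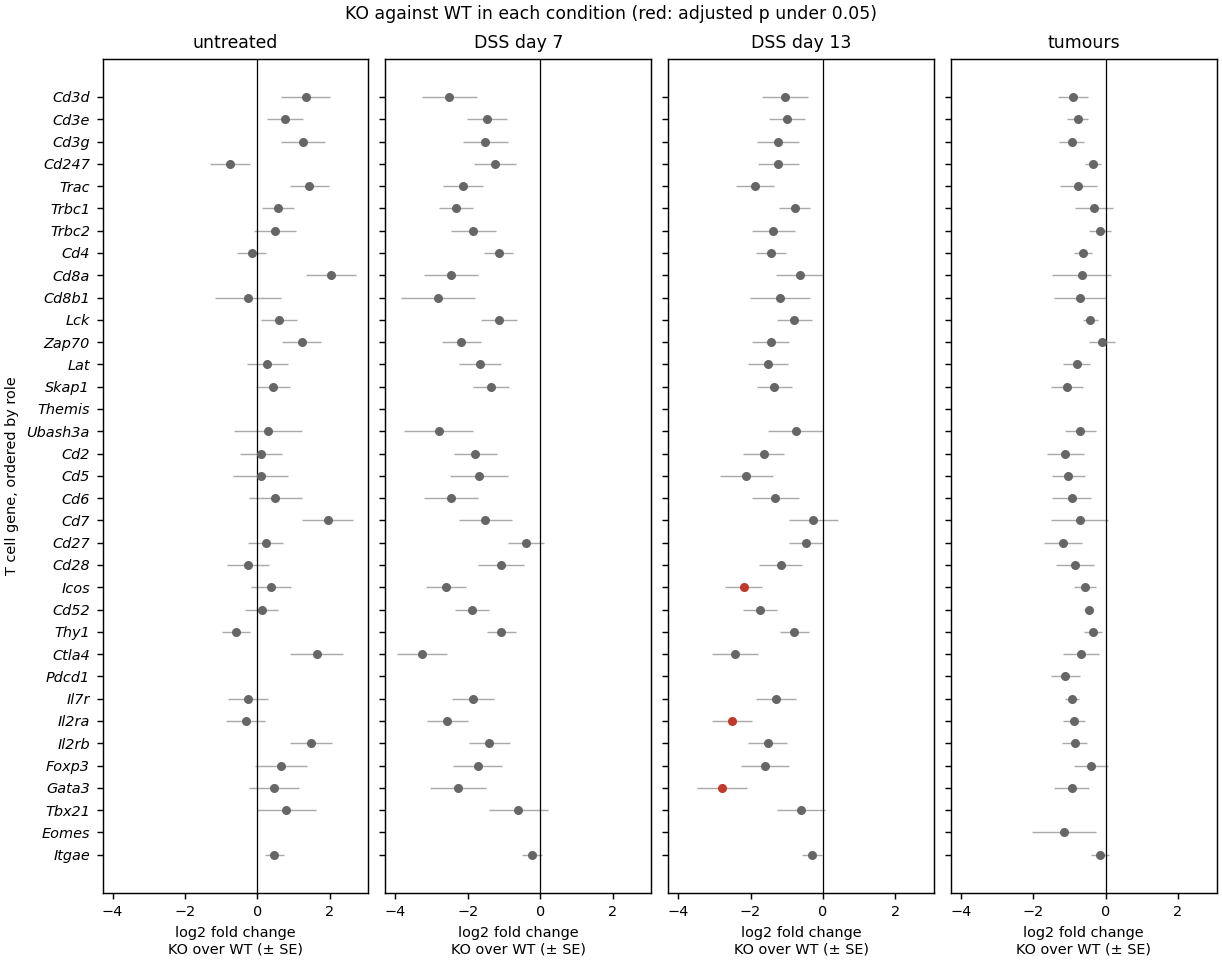
Log2 difference of KO from WT for each member in untreated colon, at day 7, at day 13 and in tumours, with bars of 1 SE; red points passed an adjusted p of 0.05. Only Il2ra, Icos and Gata3 at day 13 are red, and all points at day 7, day 13 and in tumours lie below 0.

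In untreated colon no member differed between the genotypes by the test. The median log2 difference was 0.46, against -0.01 for all genes, and 25 of 32 members were positive. The test called 0 members and 0.011% of all genes, and DESeq2 called 0 members. At an unadjusted p under 0.05 there were 6 members, against 1182 of the 18102 genes tested. Cd8a had 1.38, 0.935 and 3.0 CPM in untreated KO colon, against 0.563, 0.0791 and 0.622 CPM in untreated WT colon. Its KO libraries were all above its WT libraries, with a log2 difference of 2.04 ± 0.69 (adjusted p = 0.643). Cd7, a surface protein of T cells and NK cells, differed by 1.94 ± 0.70 (adjusted p = 0.722) and Trac by 1.44 ± 0.55 (adjusted p = 0.726). Cd3e differed by 0.77 ± 0.50 (adjusted p = 0.801), Foxp3 by 0.65 ± 0.71 (adjusted p = 0.869) and Cd4 by -0.15 ± 0.40 (adjusted p = 0.953). In 9 members every KO library was above every WT library, against 8.76% of all genes. The receptor chain Cd247 went the other way, with 1.09, 1.65 and 1.04 CPM in KO, against 1.73, 2.21 and 2.31 CPM in WT. Its log2 difference was -0.75 ± 0.55 (adjusted p = 0.808).

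In tumours, too, no member passed between KO and WT. The deleted gene Axin1 did not pass there either (-1.6 ± 0.11, adjusted p = 0.0866). All 33 tested members were negative, from -1.18 to -0.11, with a median of -0.76, against -0.01 for all genes. The lowest adjusted p was 0.942, DESeq2 called 1 member, and edgeR called 0% of all genes. At an unadjusted p under 0.05 there were 8 members, against 654 of the 17245 genes tested. Il7r, the receptor that keeps naive and memory T cells alive, had 3.68, 2.86 and 3.54 CPM in KO tumours, against 6.75, 6.32 and 6.09 CPM in WT tumours. Its groups did not overlap and its SE was small, at -0.92 ± 0.19 (adjusted p = 0.942). Cd52 differed by -0.47 ± 0.12 and Pdcd1 by -1.11 ± 0.39, with the same adjusted p. Cd3e differed by -0.77 ± 0.29 and Cd4 by -0.62 ± 0.25 (adjusted p = 0.942 each), Foxp3 by -0.41 ± 0.47 (adjusted p = 0.942), and Cd8a by -0.66 ± 0.81 (adjusted p = 0.949). Without KO tumour replicate 2, the one high in squamous epithelium genes, Cd8a differed by -1.72 (adjusted p = 0.944) and 0 members passed. In 8 members, Cd3e, Cd3g, Cd4, Skap1, Icos, Cd52, Pdcd1 and Il7r, every KO tumour was below every WT tumour, against 4.86% of all genes. Zap70 was the nearest to equal, at -0.11 ± 0.36 (adjusted p = 0.982).

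In the mean over the 3 colon conditions, 5 members were lower in KO and none higher, against 3.88% of all genes lower. They were Il2ra (-1.79 ± 0.32, adjusted p = 0.012), Icos (-1.47 ± 0.31, adjusted p = 0.0215), Cd52 (-1.17 ± 0.27, adjusted p = 0.0286), Cd4 (-0.91 ± 0.23, adjusted p = 0.0399) and Gata3 (-1.53 ± 0.42, adjusted p = 0.0478). In untreated colon alone the differences of these 5 were mixed in sign, at -0.32 ± 0.54 for Il2ra, 0.38 ± 0.55 for Icos, 0.12 ± 0.46 for Cd52, -0.15 ± 0.40 for Cd4 and 0.46 ± 0.69 for Gata3, and none passed. Cd3e differed by -0.56 ± 0.30 (adjusted p = 0.255), Cd8a by -0.35 ± 0.40 (adjusted p = 0.614) and Foxp3 by -0.89 ± 0.40 (adjusted p = 0.175). The count was 16 without WT replicate 2 of day 13, 11 without WT replicate 3 of day 7 and 8 without WT replicate 1 of day 7. It was 1 without KO replicate 3 of day 13 and 0 without both squamous libraries of day 13. It was 2 or 3 without any single other library except KO replicate 2 of day 13, where it was 4, and untreated KO replicate 3, where it was 5. In the same comparison all 4 leukocyte genes, 7 of 8 macrophage and monocyte genes and 4 of 5 fibroblast genes fell.

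Against untreated colon of the same genotype, 5 members fell at day 7 in KO and 6 others rose in WT, and no member passed in both. In KO 5 of 32 tested members fell and none rose, against 4.07% of all genes lower, and the median was -1.05. They were Cd8a (-2.99 ± 0.75, adjusted p = 0.0168), Itgae (-1.04 ± 0.28, adjusted p = 0.0244), Trbc1 (-1.67 ± 0.47, adjusted p = 0.0293), Cd7 (-2.58 ± 0.74, adjusted p = 0.0321) and Cd3e (-1.82 ± 0.54, adjusted p = 0.0378). Cd8a and Itgae are known from the intraepithelial lymphocytes of the gut, and Itgae encodes the integrin chain CD103, which binds epithelial E-cadherin. In WT Itgae differed by -0.35 ± 0.28 at day 7 (adjusted p = 0.406). Cd4 differed by -0.10 ± 0.40 and Foxp3 by -0.14 ± 0.70, and neither passed. In the same comparison Tcrg-C2 and Tcrg-C4 of the gamma chain fell too, 2 of the 7 gamma-delta T cell genes.

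Itgae had 1.83, 1.62 and 1.98 CPM in KO at day 7, against 3.68, 3.78 and 3.77 CPM in untreated KO colon. Cd8a had 0.385, 0.128 and 0.145 CPM in KO at day 7, against 1.38, 0.935 and 3.0 CPM in untreated KO colon. Cd3e had 0.433, 0.554 and 0.193 CPM in KO at day 7, against 1.29, 1.16 and 1.8 CPM in untreated KO colon. Day 7 lay below untreated colon in every library for these genes. The count of calls was 0 without KO day 7 replicate 2 or 3, 1 without KO day 7 replicate 1 or untreated replicate 1 or 3, and 3 without untreated replicate 2.

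In WT 6 of 32 members rose at day 7 and none fell, against 8.52% of all genes higher, and the median was 1.17. They were Ctla4 (3.82 ± 0.71, adjusted p = 0.00344), Icos (2.28 ± 0.54, adjusted p = 0.0117), Zap70 (2.12 ± 0.54, adjusted p = 0.017), Trac (2.06 ± 0.55, adjusted p = 0.0214), Foxp3 (2.23 ± 0.70, adjusted p = 0.0421) and Cd52 (1.42 ± 0.47, adjusted p = 0.0499). Cd3e differed by 0.42 ± 0.52 (adjusted p = 0.608), Cd4 by 0.90 ± 0.40 (adjusted p = 0.132) and Cd8a by 1.53 ± 0.70 (adjusted p = 0.142). The 0.42 of Cd3e was -0.32 without WT day 7 replicate 2. Without WT day 7 replicate 2, which had the highest sum of the genes of all leukocytes among these 6 libraries, 2 members passed, and the same count was left without WT untreated replicate 2. Without WT untreated replicate 1 it was 3. In the same comparison 4 of 4 neutrophil genes, 2 of 4 genes of all leukocytes, 2 of 8 macrophage and monocyte genes and 0 of 10 B cell genes rose. Neutrophil genes averaged 66.0 CPM in WT at day 7, against 0.531 CPM in untreated WT colon, and the 4 genes of all leukocytes 126 CPM, against 39.8 CPM. Macrophage and monocyte genes averaged 349 CPM, against 178 CPM, and B cell genes 298 CPM, against 158 CPM. Most of the untreated B cell sum was Blnk (118, 91.8 and 132 CPM), which had 146, 128 and 127 CPM at day 7. The B cell sum thus says little of the other B cell genes. The part of these cells in the T cell values was not tested.

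At day 13 no member passed in KO against untreated colon, the median was -0.25, and edgeR called 0.0276% of all genes. The KO libraries of day 13 were all female and those of untreated colon all male, so sex and DSS cannot be told apart here. At an unadjusted p under 0.05 there were 0 members, against 1380 of the 18102 genes tested, and 0 members were called by DESeq2. Itgae (-0.58 ± 0.28, adjusted p = 0.662), Skap1 (-0.85 ± 0.48, adjusted p = 0.738) and Trac (-0.83 ± 0.53, adjusted p = 0.784) had the smallest p. In WT 6 of 32 members rose at day 13, against 3.21% of all genes higher, and the median was 1.81. They were Ctla4 (3.92 ± 0.71, adjusted p = 0.0106), Icos (2.76 ± 0.54, adjusted p = 0.0151), Trac (2.48 ± 0.55, adjusted p = 0.0243), Zap70 (2.29 ± 0.54, adjusted p = 0.0309), Il2rb (2.34 ± 0.58, adjusted p = 0.0368) and Il2ra (1.98 ± 0.53, adjusted p = 0.0493). Cd3e differed by 1.3 ± 0.51, Cd4 by 0.90 ± 0.40, Cd8a by 1.79 ± 0.69 and Foxp3 by 2.32 ± 0.70, with adjusted p between 0.0695 and 0.198. In KO these same genes differed by -0.45 ± 0.50, -0.39 ± 0.41, -0.88 ± 0.65 and 0.08 ± 0.68. The WT count was 17 without day 13 replicate 2, 0 without day 13 replicate 1 or without untreated replicates 1 or 2, 2 without day 13 replicate 3 and 1 without untreated replicate 3. In the same comparison 4 of 4 neutrophil genes, 0 of 4 genes of all leukocytes, 2 of 8 macrophage and monocyte genes and 0 of 10 B cell genes rose. Neutrophil genes averaged 168 CPM in WT at day 13, against 0.531 CPM in untreated WT colon, and the genes of all leukocytes 145 CPM, against 39.8 CPM. Macrophage and monocyte genes averaged 347 CPM, against 178 CPM, and B cell genes 304 CPM, against 158 CPM. Of that B cell sum Blnk alone had 176, 123 and 122 CPM at day 13. The part of these cells was not tested here either.

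Between day 13 and day 7 no member passed in either genotype. The WT libraries of day 7 were all female and those of day 13 all male, so sex and day cannot be told apart in WT. In KO the smallest p were those of Trbc1 (1.45 ± 0.47, adjusted p = 0.0552), Cd3d (2.15 ± 0.76, adjusted p = 0.0799) and Cd8a (2.10 ± 0.75, adjusted p = 0.0821). Cd3e differed by 1.37 ± 0.54 (adjusted p = 0.118), Cd4 by -0.29 ± 0.41 (adjusted p = 0.725) and Foxp3 by 0.21 ± 0.70 (adjusted p = 0.899). In KO the median was 0.76, 31 of 32 were positive, DESeq2 called 3 members, and edgeR called 12.8% of all genes. At an unadjusted p under 0.05 there were 6 of 32 members, against 4686 of the 18102 genes tested. The members' share was thus below that of all genes. In WT the median was 0.43, DESeq2 called 0 members, and edgeR called 0.0608% of all genes. In WT 1 member had an unadjusted p under 0.05, against 3060 of the 18102 genes tested. There Gata3 (1.46 ± 0.64, adjusted p = 0.264), Itgae (0.55 ± 0.28, adjusted p = 0.342) and Cd3e (0.89 ± 0.50, adjusted p = 0.396) had the smallest p. Cd4 differed by 0 ± 0.39, Cd8a by 0.27 ± 0.65 and Foxp3 by 0.09 ± 0.63, with adjusted p between 0.88 and 0.999.

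The difference between the KO and WT responses to DSS was tested as well, and no member passed at either day. At day 7 it was negative for all 32 members, with a median of -2.29 and a lowest adjusted p of 0.175. An unadjusted p under 0.05 was reached by 22 members, against 2487 of the 18102 genes tested. edgeR called 0% of all genes there. DESeq2 called 9 members, and its own share of all genes is not given here. Ctla4 (-4.90 ± 0.99), Trac (-3.57 ± 0.78) and Trbc1 (-2.90 ± 0.64) had the smallest p, each with an adjusted p of 0.175. Cd3e stood at -2.24 ± 0.74, Cd4 at -1 ± 0.57, Cd8a at -4.51 ± 1.02 and Foxp3 at -2.37 ± 0.99, with adjusted p between 0.177 and 0.435. At day 13 it was negative for all 32, with a median of -1.80 and a lowest adjusted p of 0.0941. An unadjusted p under 0.05 was reached by 20 members, against 2448 of the 18102 genes tested. edgeR called 0.011% of all genes there. DESeq2 called 4 members, again without its own share of all genes. The KO response at day 13 sets female libraries against male untreated ones, so sex cannot be separated from it. Trac (-3.31 ± 0.76, adjusted p = 0.0941), Ctla4 (-4.06 ± 0.96, adjusted p = 0.0968) and Il2rb (-3.01 ± 0.79, adjusted p = 0.124) had the smallest p. Cd3e stood at -1.76 ± 0.71, Cd4 at -1.29 ± 0.57, Cd8a at -2.68 ± 0.95 and Foxp3 at -2.25 ± 0.97, with adjusted p between 0.236 and 0.337.

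**Figure D5:**
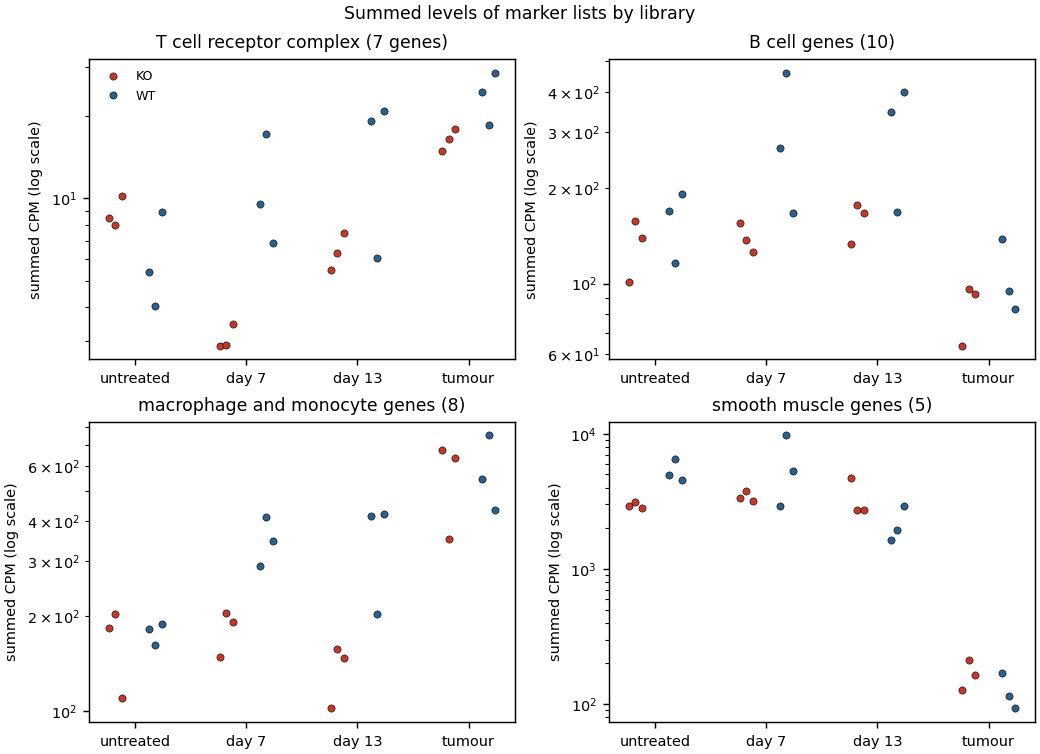
Summed CPM (log axis) per library of the 7 receptor chains, 10 B cell genes, 8 macrophage and monocyte genes and 5 smooth muscle genes, KO to the left of WT in each condition. Blnk, at 58.4 to 176 CPM, is the largest part of the B cell sum in every library. The receptor chains lie at 2.89 to 3.48 CPM in KO at day 7 and 6.84 to 17.1 CPM in WT at day 7, and smooth muscle drops in the tumours of both genotypes.

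Ratios of Ctla4 and Icos to the CD3 chains, added after the levels of both genes had been seen, did not pass the test between KO and WT in any condition. Ctla4 over the summed Cd3d, Cd3e and Cd3g was -2.38, -2.92 and -1.04 (log2) in KO at day 7, against -0.90, -0.36 and -0.50 in WT at day 7. At day 13 it was -2.84, -2.15 and -2.54 in KO, against -0.94, -1.80 and -1.29 in WT. In tumours it was 0.25, -0.95 and 0.05 in KO, against -0.85, -1.07 and 0.46 in WT. Every KO library was below every WT library at day 7 and day 13, at the smallest p the exact permutation test allows (0.1 each, adjusted p = 0.4 over the 60 tests), while in tumours the genotypes overlapped (exact permutation p = 0.9). Icos over the same sum was -1.58 ± 0.34 in KO and -0.66 ± 0.47 in WT at day 7, and -2.02 ± 0.52 in KO and -0.94 ± 0.18 in WT at day 13 (SD, exact permutation p = 0.1 each). In untreated colon, where the genotypes overlapped, Ctla4 over the sum was -2.81 ± 0.60 in KO and -3.23 ± 1.28 in WT (exact permutation p = 0.7), and Icos over the sum -2.66 ± 0.70 in KO and -1.86 ± 1.11 in WT (exact permutation p = 0.3). The KO minus WT difference for Icos was thus -0.80 in untreated colon, near the -0.92 of day 7 and the -1.08 of day 13. For Il2ra over the sum it was -1.49 in untreated colon, -0.97 at day 7 and -1.27 at day 13. Every KO library was below every WT library each time (exact permutation p = 0.1 each, adjusted p = 0.4). For Lck over the sum it was -0.55 in untreated colon, but 0.52 at day 7 and 0.43 in tumours, at the same p. Cd8a over the sum was -2.24 ± 0.73 in KO and -1.3 ± 0.45 in WT at day 7, and the values overlapped (exact permutation p = 0.2).

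Some values rest on reads that another gene could share. Of the members, 17 overlap another annotated gene and 10 of them on the same strand, and the sources used here do not give the strand setting of the libraries. The partner had a higher mean count than the member for Cd247 (Pou2f1), Cd27 (Vamp1), Cd52 (Crybg2), Foxp3 (Ccdc22, Gm36995 and Ppp1r3f), Itgae (Haspin) and Cd7 (Gm11775). All of these partners lie on the opposite strand, and every partner on the same strand had a lower mean count than its member.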

How the data were processed

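Illumina libraries were made from Trizol extracts of colon and colorectal tumours, per the labels' protocols. Per the submitters' processing notes, the tools were STAR (2.7.6a) and RSEM (1.3.1), and the build was GRCm38. The annotation release and the strand setting are not given there. Per the file headers, each deposited table lists an expected count (an estimate that splits shared reads) and a TPM value for every gene, both made by the authors. Between 11.0% and 12.4% of the expected counts were not whole, and they were rounded. No group held copies of a library. A symbol was found for 55141 gene identifiers, and the other 346 held at most 0.074% of a library's counts.

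Tests used edgeR 4.0.16 in R 4.3.3 (quasi-likelihood with robust estimation, TMM, filterByExpr with a minimum count of 10 and a minimum total of 15). The 18 colon libraries were fitted together (18102 genes), the 6 tumours together (17245 genes), and all 24 libraries for tumours against colon (19056 genes). The steps were tested on simulated data. Ratios within a library used counts with 0.5 added and exact two-sided permutation tests in SciPy 1.17.1. DESeq2 1.42.0, RLE size factors, no or a stricter filter on low counts (1 CPM), a covariate of Y-linked expression, fits of only the groups compared and each library left out were the alternatives. The alternative without the squamous libraries of day 13 and most ratios were added after seeing the data. Replicates were numbered by order only. Each comparison names Cd3e, Cd4, Cd8a and Foxp3. It also names the 8 passing members of smallest p at most, or 3 of smallest p where none passed. Other genes and values that are named were chosen after they were seen. The members and gene lists were chosen with earlier results of these data known. Positions and overlapping genes are from GENCODE M21 on GRCm38.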

Additional observations from a re-analysis of the deposited data

Results flagged for a closer look

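In 10 cases among the members tested, every KO library lay on one side of all 3 untreated KO libraries and every WT library on the opposite side of all 3 untreated WT libraries. The test of that difference (edgeR, interaction, Benjamini-Hochberg over all genes) passed for none of them. At day 7 the KO minus WT difference in the log2 response was -3.57 for Trac (adjusted p = 0.175), -2.90 for Trbc1 (0.175), -4.51 for Cd8a (0.177), -3.40 for Zap70 (0.177), -2.99 for Icos (0.194), -4.90 for Ctla4 (0.175), -2.88 for Il2rb (0.197) and -2.73 for Gata3 (0.29). At day 13 it was -3.31 for Trac (adjusted p = 0.0941). In tumours it was -1.57 for Cd3e (adjusted p = 0.515). All 3 responses use the same untreated libraries.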

How the results depend on the processing

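No paired analysis was possible because the labels carry no replicate numbers. The counts of members that rose in tumours stayed between 8 and 13 in KO and between 22 and 28 in WT under every alternative run. The other counts moved. The share of all genes called is not given for these alternatives, so their counts are not set against a background. With DESeq2, the count of members called between KO and WT was 16 at day 7, 7 at day 13, 1 in tumours and 13 over the colon mean, the count for the KO minus WT response was 9 at day 7 and 4 at day 13, and the count against untreated WT was 10 at day 7 and 16 at day 13. Between day 13 and day 7 in KO it was 3. With no filter on low counts it was 1 between genotypes at day 13, 3 over the colon mean and 2 for day 7 in KO, and with a stricter filter 1 for day 13 against day 7 in KO. With Y-linked expression as a covariate it was 0 between genotypes at day 13, 3 over the colon mean, 3 for day 7 in KO and 2 for day 7 in WT. With only the groups compared in the fit it was 0 between genotypes at day 13, 8 for day 7 in KO, 1 for day 7 in WT, 0 for day 13 in WT and 3 for day 13 against day 7 in KO. Without the squamous libraries of day 13, an alternative added after seeing the data, it was 0 between genotypes at day 13, 0 over the colon mean and 1 for day 13 in WT. With each library left out, counts ran from 0 to 15 between genotypes at day 7, 0 to 16 at day 13, 1 to 16 over the colon mean, 0 to 3 for day 7 in KO, 2 to 8 for day 7 in WT, 0 to 17 for day 13 in WT, and 0 to 7 for the KO minus WT response at day 13.

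The values that changed sign were all uncalled. The log2 difference of Foxp3 at day 7 in KO (-0.14) was 0.08 with the Y-linked covariate and -0.54 to 0.42 with a library left out. Foxp3 between day 13 and day 7 in WT (0.09) was -0.25 with that covariate, -0.40 without the squamous libraries of day 13 and -0.40 to 0.69 with a library left out, and in KO (0.21) it was -0.19 to 0.47. Foxp3 at day 13 in KO (0.08) was -0.34 to 0.63. Cd4 between day 13 and day 7 in KO (-0.29) was 0.01 without the squamous libraries of day 13 and -0.73 to 0 with a library left out. Cd4 was -0.35 to 0.05 at day 7 in KO and -0.30 to 0.11 between genotypes in untreated colon. Cd8a between day 13 and day 7 in WT was -0.11 to 0.67, and Cd3e at day 7 in WT -0.32 to 0.85. The causes were not tested. Of 1751 values of single members under an alternative, 1497 kept their direction and call, 199 lost a call, 36 gained one and 19 changed sign. With a median of 23 counts per member and library and 3 libraries a group, a difference that did not pass is not shown to be absent.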
